A study of Mus musculus with 30 samples.

Results

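Parental Eµ-Myc; Cdkn2a-/- lymphoma cells exposed to 750 nM mafosfamide for 12 h (4 arrays) were compared with the same cells at 0 h, untreated (5 arrays). These 9 arrays were chosen by their time labels from the 30 of the series. The series holds no untreated parental culture at 12 h, so effects of the drug and of 12 h in culture cannot be told apart. All 9 cultures carried the Eµ-Myc transgene, in which the immunoglobulin heavy chain enhancer drives Myc, and lacked Cdkn2a on a C57BL/6J background, and all were seeded on irradiated Cdkn2a-/- embryonic fibroblasts. The cells are 1 lymphoma line, so the tests measure the spread between arrays of that line and not between animals. RNA was hybridised to Affymetrix Mouse Gene ST 1.0 arrays, and each value below is the deposited RMA (robust multi-array average) signal on the log2 scale, where a difference of 1 is a 2-fold change. Arrays are called by the number in their sample descriptions, 2 to 5 at 12 h and 1 to 5 at 0 h, and same-numbered arrays were treated as pairs in the test. The titles number the 12 h cultures 1 to 4 instead.

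Mafosfamide is a form of cyclophosphamide that needs no activation in the liver and attaches alkyl groups to DNA, some of which join the strands of the helix. Such damage activates the checkpoint kinases ATM and ATR, which stabilise the transcription factor p53. p53 in turn drives genes for cell cycle arrest, DNA repair, cell death and its own degradation. Loss of Cdkn2a, which encodes the p53 activator Arf and the cell cycle inhibitor p16, leaves the damage route to p53 in place. The related electrophile acrolein, released from the same drug class, reacts with glutathione, which the transcription factor NRF2 helps to maintain.

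The labelled cell type was first set against its markers. Cd79a, Cd79b, Pax5, Ebf1, Blnk, Cd22, Pou2af1 and Cd74 averaged at least 11.46 in both groups, while Ighm, the heavy chain constant region, averaged 7.10 at 12 h and 7.13 at 0 h. None of the 11 measured B-cell markers was called (limma) and none had an unadjusted p under 0.05. Ms4a1, the B-cell antigen CD20, split the cultures by number: it was 12.37, 8.76, 8.12 and 6.88 at 12 h, against 11.38, 12.39, 8.43, 8.53 and 7.17 at 0 h. The high values were number 2 at 12 h and numbers 1 and 2 at 0 h, so the cultures already differed in this marker at 0 h. The T and NK cell list averaged 6.32 ± 0.03 at 12 h (SD, n = 4) and 6.43 ± 0.11 at 0 h (SD, n = 5). The fibroblast list, for the feeder cells, averaged 8.38 ± 0.24 at 12 h and 8.28 ± 0.21 at 0 h. This list was not separated by an exact permutation test over arrays, made without the pairing by number (two-sided, p = 0.532, smallest possible 0.00794). Of its 29 genes 25 lay above 0, where 45.2% of all genes did. Acta2 (smooth muscle actin) alone rose (0.78). Its call was lost without 0 h number 5 or 12 h number 2, 3 or 5 (adjusted p up to 0.119). The array ranges of the list mean were 8.03 to 8.59 at 12 h and 8.12 to 8.62 at 0 h. Cdkn2a itself, the deleted gene, lay between 7.19 and 7.37 on the 12 h arrays and between 7.23 and 7.47 on the 0 h arrays. Fewer cells of a type and less RNA per cell cannot be told apart in these bulk samples, and normalisation to a common distribution hides any shift in the RNA content of the cells. The values of 0 h number 5 were compressed: their interquartile range was 2.97, where the other 8 arrays had 3.41 to 3.72.

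Of 19937 genes tested, 708 were called at an adjusted p under 0.05, which is 3.55% (limma, Benjamini-Hochberg adjustment). Of these, 584 rose and 124 fell. Changes were mostly small: 21 rises and 4 falls reached 2-fold, and 105 rises and 15 falls reached 1.5-fold. All 4 within-number differences had the direction of the call for 542 of the 584 rises and 113 of the 124 falls. Over all 19937 genes, these 4 differences had 1 sign in 4978. The calls came from a fit with the same numbers as its block, so this agreement is not a separate test of them. The 12 h and 0 h values did not overlap at all for 212 rises and 42 falls, where 2.98% of all genes showed no overlap. The count depended on pairing the arrays, on single arrays and on the other times in the fit, which used all 23 parental arrays. On the 9 arrays alone with the replicate block, 35 genes were called, 34 of them among the 708. Without the replicate block 102 genes were called, all of them among the 708, and with the block but without 1 array the count lay between 186 (without 12 h number 5) and 1533 (without 0 h number 1). It was also more than 1.5 times lower without 12 h number 3 (192) or 4 (400) and without 0 h number 3 (261) or 5 (354), and higher without 0 h number 2 (1375). In all 9 of these fits 155 of the 708 were called, 143 rises and 12 falls.

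**Figure D1:**
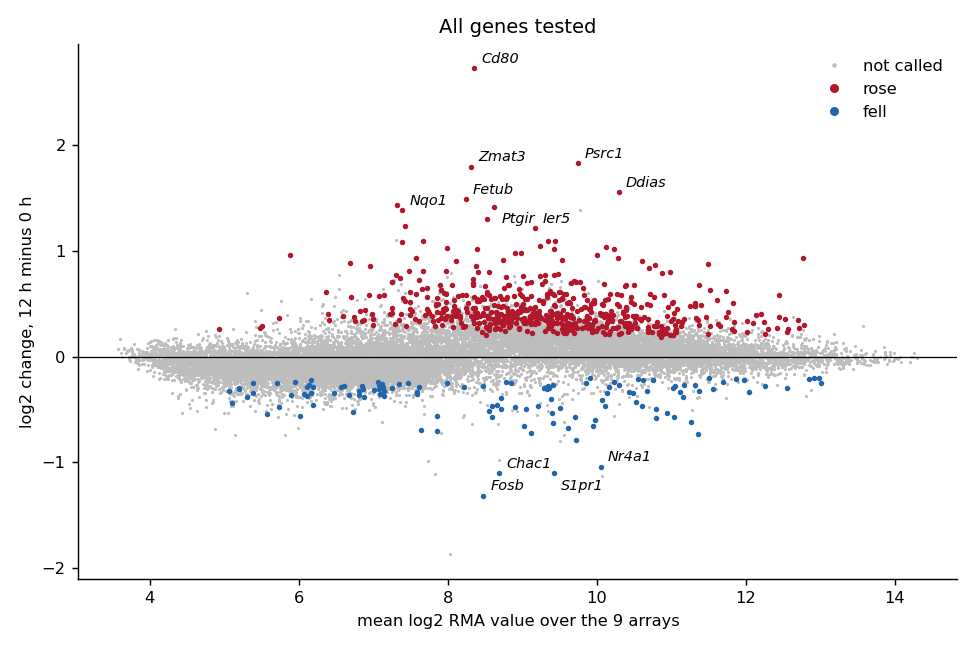
Log2 change, 12 h minus 0 h, of the 19937 genes against their mean log2 value over the 9 arrays. Red points rose (584), blue points fell (124) and grey points were not called. The largest rise was that of Cd80 at 2.72 and the largest called fall that of Fosb at -1.31.

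The direction of small changes went with the level of a gene. The median change was -0.09 for the 7833 genes with a mean under 7, 0.00 for the 5211 genes between 7 and 9, and 0.06 for the 6893 genes at 9 or more, limits that were set after the values were seen. Without 0 h number 5 these outer medians were -0.04 and 0.02. Of the 31 falls with a mean under 7, 2 were still called without that array, against 7 of 32 between 7 and 9 and 33 of 61 at 9 or more. Of the 584 rises, 287 were still called without it.

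The largest change was in Cd80, which encodes a costimulatory ligand for CD28 and CTLA4 on T cells. Its values at 12 h were 10.25, 9.70, 9.96 and 9.61, against 6.59, 6.997, 7.10, 7.91 and 7.03 at 0 h. Every 12 h array lay above every 0 h array. The fitted change was 2.72 (SE 0.19, limma adjusted p = 1.17e-07), a 6.60-fold rise, and a second probe set for the gene averaged 8.95 at 12 h and 7.44 at 0 h. Its partner Cd86, which binds the same receptors, averaged 8.92 ± 0.24 at 12 h and 8.88 ± 0.35 at 0 h and was not called (0.09, adjusted p = 0.584, 95% interval -0.12 to 0.30).

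Cd80 belongs to a list of 18 costimulatory ligands and receptors, of which 5 rose, 1 fell and 12 were not called, where 2.93% of all genes rose and 0.622% fell. The list was written with earlier results of these data known, so its share is descriptive. Without the block 2 rose, and on the 9 arrays alone with the block 2 rose. With 1 array left out, 2 rose without 12 h number 3 and 3 without 0 h number 3 or 12 h number 5. Tnfsf9, which encodes the ligand of the T-cell receptor 4-1BB, was 7.04, 7.42, 7.78 and 7.53 at 12 h and 6.43 to 6.90 at 0 h (0.85, SE 0.08, adjusted p = 2.92e-06). The groups did not overlap, and number 2 was the lowest of the 12 h arrays. Cd274, which encodes the checkpoint ligand PD-L1, rose by 0.46 (adjusted p = 0.0149), and the adhesion molecule Icam1 by 0.26 (adjusted p = 0.0227). Cd244a, a SLAM-family receptor, rose by 0.57 (adjusted p = 0.00726), with 8.42 on number 2 against 9.61 to 9.82 on the other 12 h arrays. Cd2, an adhesion receptor, was 10.52 to 10.72 at 12 h and 10.96 to 11.52 at 0 h and fell by 0.54 (adjusted p = 0.00151). Cd80, Tnfsf9 and Cd2 were called in all 9 fits that each left out 1 array. Without 12 h number 3 the adjusted p was 0.0552 for Cd244a, 0.0864 for Cd274 and 0.111 for Icam1, and the calls of Cd274 and Icam1 were also lost without 0 h number 3 and 12 h number 5, and that of Icam1 without 0 h number 5 and 12 h numbers 2 and 4.

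**Figure D2:**
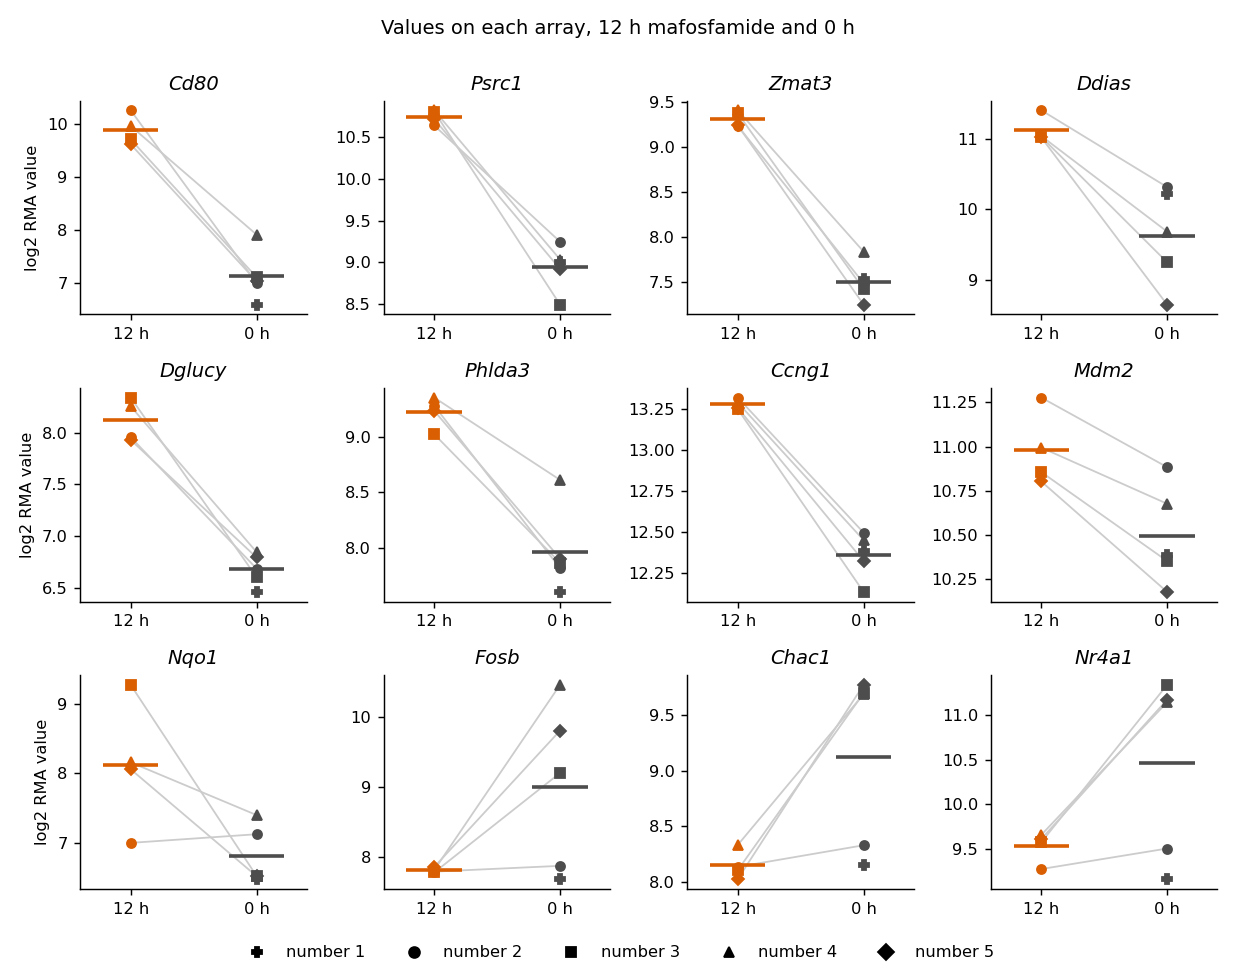
Log2 RMA value of 12 genes on each array, with 12 h on the left (orange) and 0 h on the right (grey). Marker shapes give the array number, thin lines join same-numbered arrays and thick bars are group means. The 12 h and 0 h values of Cd80, Psrc1, Zmat3, Ddias, Dglucy, Phlda3 and Ccng1 do not overlap, while 0 h numbers 1 and 2 of Fosb, Chac1 and Nr4a1 lie near the 12 h values.

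Targets of p53 were among the largest rises. The gene lists were written with earlier results of these data known, so the shares given here and below are descriptive. Across 5 lists of known targets grouped by role, 23 of 55 measured genes rose, none fell and 32 were not called (limma), where 2.93% of all genes rose. Their median change was 0.23, against -0.02 over all genes. Of the 23, 14 rose without the replicate block, and 12 list members rose on the 9 arrays alone with the block. Between 18 and 24 members rose and 0 or 1 fell when 1 array was left out. Of the 55, 49 lay above 0, against 45.2% of all genes. Among genes with means of 9 or more, 69.3% lay above 0 and the median was 0.06. Trp53, Cdkn1a and Bax were not analysed here, since no probe set carried 1 of these symbols alone.

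In the cell cycle and growth list, 5 of 13 rose. Psrc1, a microtubule-binding protein of the spindle, was 10.64, 10.80, 10.82 and 10.71 at 12 h, against 9.004, 9.25, 8.50, 9.04 and 8.92 at 0 h. It rose by 1.82 (SE 0.11, adjusted p = 1.92e-08). Zmat3, which binds RNA through zinc fingers, was 9.23 to 9.40 at 12 h and 7.25 to 7.83 at 0 h and rose by 1.79 (SE 0.11, adjusted p = 1.92e-08). For both genes the spread within 12 h was small, with SDs of 0.08 and 0.09. Ccng1 (cyclin G1, a partner of phosphatase PP2A) averaged 13.28 ± 0.03 at 12 h and 12.36 ± 0.14 at 0 h, a 1.90-fold rise. The kinase gene Plk2 rose by 0.81 (adjusted p = 0.0057) and Gtse1, a protein of S and G2 phase that binds p53, by 0.80 (adjusted p = 0.000195). The sestrin genes Sesn1 and Sesn2 stood at 0.11 and 0.31, Gadd45a at 0.22 and Btg2 at -0.27, none of them called.

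In the cell death list 8 of 14 rose, and these were smaller changes apart from a pair of genes. Phlda3, which blocks Akt signalling at the membrane, was 9.28, 9.03, 9.36 and 9.24 at 12 h, against 7.60, 7.81, 7.86, 8.61 and 7.90 at 0 h. It rose by 1.30 (SE 0.22, adjusted p = 0.00276). Trp53inp1, a stress protein that promotes p53 activity, averaged 11.97 ± 0.14 at 12 h and 11.11 ± 0.15 at 0 h and rose by 0.88 (adjusted p = 0.000111). The BH3-only genes Bbc3 (Puma) and Pmaip1 (Noxa) rose by 0.52 and 0.46 (adjusted p = 0.00729 and 0.00419), with no overlap between groups. Ei24 rose by 0.45, the apoptosome scaffold Apaf1 by 0.39 and the nuclease gene Aen by 0.37, and Pidd1, a scaffold for caspase-2, by 0.45. Fas, the death receptor, lay between 5.01 and 5.16 at 12 h and between 5.02 and 5.48 at 0 h (-0.14, adjusted p = 0.341). This signal was low, below that of the deleted gene Cdkn2a, so the missing call says little about Fas. The Pidd1 call was lost without 12 h number 3, 4 or 5 (adjusted p up to 0.0724).

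In the list of targets that feed back on p53, 1 of 7 rose. Mdm2, the ubiquitin ligase that degrades p53, was 11.28, 10.86, 10.99 and 10.80 at 12 h, against 10.38, 10.88, 10.35, 10.68 and 10.18 at 0 h. The groups overlapped through 0 h number 2, but each 12 h value exceeded that of its own number, and the fitted rise was 0.49 (SE 0.10, adjusted p = 0.0101). It was not called without 12 h number 3 (adjusted p = 0.0666) or number 5 (0.0573). The related Mdm4 stood at 0.23 and the phosphatase gene Ppm1d at 0.02, neither called.

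Of 9 targets in DNA repair, 3 rose. Ddias, which protects cells from death after DNA damage, was 11.41, 11.03, 11.04 and 11.03 at 12 h, against 10.21, 10.32, 9.25, 9.68 and 8.64 at 0 h. It rose by 1.55 (SE 0.20, adjusted p = 0.000208), and its spread was wider at 0 h (SD 0.70) than at 12 h (SD 0.19). Polk, the translesion DNA polymerase kappa, was 9.69 to 9.90 at 12 h and 8.08 to 9.23 at 0 h and rose by 1.05 (adjusted p = 0.000353). Ercc5, the XPG nuclease, rose by 0.29 (adjusted p = 0.0165) and lost its call without 0 h number 3 (adjusted p = 0.0691) or without 12 h number 3 (0.0864), 4 (0.0555) or 5 (0.0509). Pcna, the replication clamp, stood at -0.08.

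In metabolism and transport, 6 of 12 rose and all 12 lay above 0. Dglucy, a mitochondrial enzyme that converts D-glutamate, was 7.96, 8.34, 8.26 and 7.93 at 12 h, against 6.46, 6.68, 6.60, 6.84 and 6.79 at 0 h (1.43, SE 0.12, adjusted p = 1.75e-06). The epoxide hydrolase gene Ephx1 rose by 1.09 (adjusted p = 0.0459), Inka2, an inhibitor of the kinase PAK4, by 1.08 (adjusted p = 0.000209), and the thiamine transporter gene Slc19a2 by 1.01 (adjusted p = 1.2e-06). The sugar reductase gene Dcxr and the small GTPase gene Rap2b rose by 0.42 and 0.41. The calls of Ephx1 and Rap2b were each lost in 6 of the 9 fits without 1 array, with adjusted p of up to 0.183 (without 12 h number 3) and 0.203 (without 12 h number 5).

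**Figure D3:**
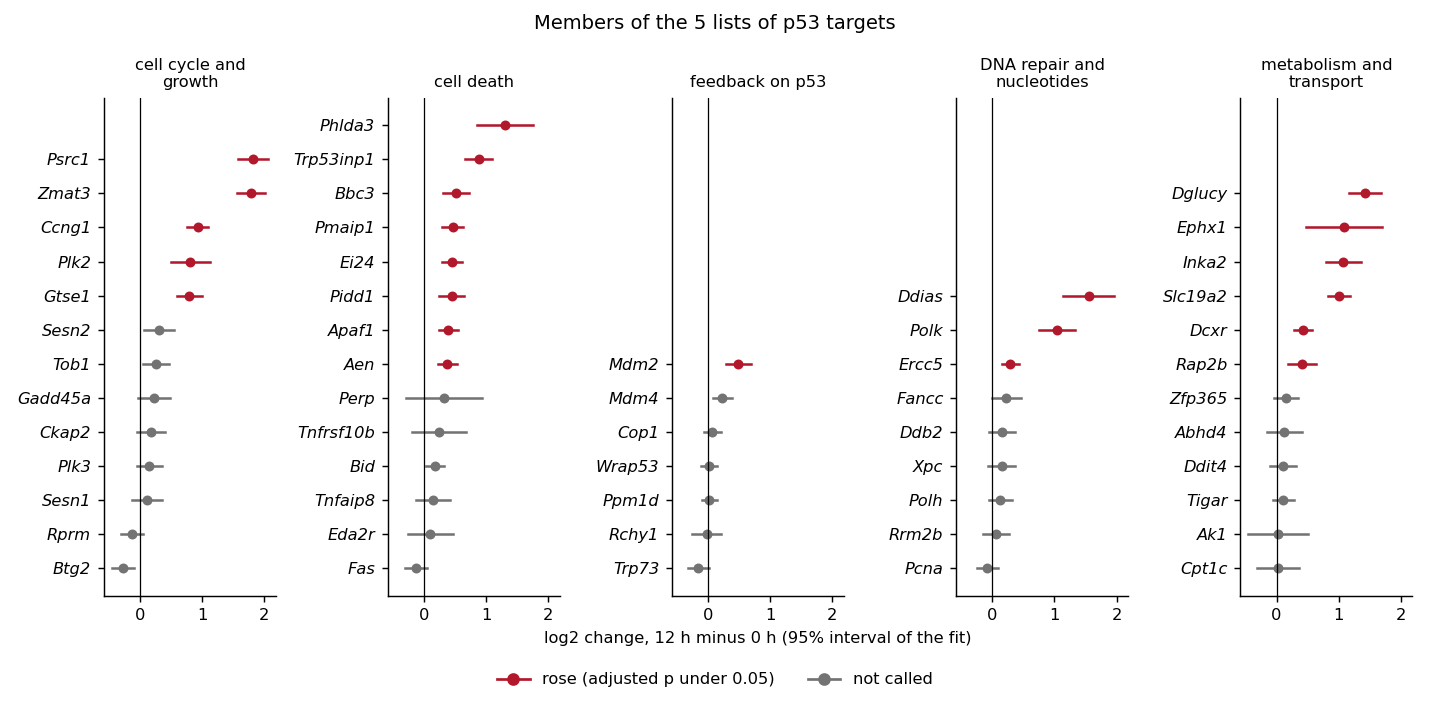
Log2 change, 12 h minus 0 h, with the 95% interval of the fit, for the 55 measured p53 targets in 5 panels by role. Red marks the 23 members that rose and grey the 32 not called. The intervals of Psrc1, Zmat3, Ddias and Dglucy lie wholly above 1.

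Because these genes moved together, their promoters were searched for the p53 half-site, the degenerate 10-base motif of which p53 binds 2 copies. The promoters run from 250 bases before to 50 after each RefSeq gene start (GRCm38.p6). Of the 23 genes that rose, 20 had such a sequence and 8 of these held a half-site (Ccng1, Gtse1, Aen, Ei24, Mdm2, Polk, Rap2b and Inka2), against 7 of 26 with a sequence among the members not called and 9.55% of all 27025 genes. The half-site is its own reverse complement, so 1 search covers both strands. Half-sites are shown in capitals for a feedback gene, a cell cycle gene and a signalling gene, from 5′ to 3′ along each gene.
Mdm2 (chr10:117710709-117711008, minus strand): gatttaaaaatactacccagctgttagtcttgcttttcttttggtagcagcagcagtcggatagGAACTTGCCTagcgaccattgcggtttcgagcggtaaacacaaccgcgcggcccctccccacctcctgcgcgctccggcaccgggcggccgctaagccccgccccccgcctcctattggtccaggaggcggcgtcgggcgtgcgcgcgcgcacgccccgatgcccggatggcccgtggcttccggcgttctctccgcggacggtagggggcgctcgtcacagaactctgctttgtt
Ccng1 (chr11:40755237-40755536, minus strand): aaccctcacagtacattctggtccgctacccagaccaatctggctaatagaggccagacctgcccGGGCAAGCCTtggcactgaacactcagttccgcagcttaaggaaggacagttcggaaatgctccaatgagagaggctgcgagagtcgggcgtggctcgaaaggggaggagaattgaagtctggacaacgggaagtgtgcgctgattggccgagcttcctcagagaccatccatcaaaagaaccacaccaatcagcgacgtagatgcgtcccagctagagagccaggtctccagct
Inka2 (chr3:105705208-105705507, plus strand): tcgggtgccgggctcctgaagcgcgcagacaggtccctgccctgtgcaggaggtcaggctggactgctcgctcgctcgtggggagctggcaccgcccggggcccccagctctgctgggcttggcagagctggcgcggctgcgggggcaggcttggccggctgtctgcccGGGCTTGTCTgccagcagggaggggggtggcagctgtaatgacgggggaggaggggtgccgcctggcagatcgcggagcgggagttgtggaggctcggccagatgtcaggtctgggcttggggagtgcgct
The matches begin 186, 185 and 81 bases before the annotated start of Mdm2, Ccng1 and Inka2. Each of these promoters held 1 match, which describes the letters only, and Inka2 has a further annotated start.

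Upstream of p53, none of the 21 checkpoint kinases and mediators was called by limma (7 had an unadjusted p under 0.05, and none was called without the block), although 19 lay above 0 (median 0.15, against 0.06 for genes with means of 9 or more). Chek2, the effector kinase of ATM, was 9.99, 9.69, 9.58 and 9.54 at 12 h, against 9.95, 9.87, 8.60, 9.14 and 8.08 at 0 h (0.68, adjusted p = 0.0525). Here 0 h numbers 1 and 2 lay within the 12 h range. Without 0 h number 1 the list held 6 rises, in a fit with 1178 rises over all genes, against 584 in the main fit. Of 25 crosslink repair genes, 23 lay above 0 (median 0.19) and 2 rose (8.0%, against 2.93% of all genes), the Fanconi anaemia gene Fancd2 by 0.24 and the nuclease scaffold gene Slx4 by 0.34. None rose without the block or with median centring. Both lost their calls without 0 h number 3 or 5 or 12 h number 3 or 5, and Slx4 also without 12 h number 4 (adjusted p up to 0.145 and 0.161, without 12 h number 3). The medians without 0 h number 5 were 0.06 for the checkpoint list and 0.11 for the crosslink list, against 0.02 for genes at 9 or more. In base excision repair the glycosylase gene Ogg1 rose by 0.24 and Ung fell by 0.27 among 19 genes, with calls lost in 5 and 3 of the 9 fits (adjusted p up to 0.169 and 0.0732, without 12 h number 3 for Ogg1 and 5 for Ung). Neither the 31 genes of replication and G1/S nor the 30 of G2/M held a call, with medians of 0.07 and 0.08 (unadjusted p under 0.05 in 7 and 8, none called without the block). Without 0 h number 1 or 2, 4 and 5 G2/M genes rose, in fits where 1178 and 1066 of all genes rose.

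Genes of the glutathione and NRF2 response formed another group with several rises: 7 of 33 rose (21.2%, against 2.93% of all genes), none fell, and 29 lay above 0 (median 0.16). Of all genes 45.2% lay above 0, and of genes with means of 9 or more 69.3% (median 0.06). Without the block 1 rose, and none rose on the 9 arrays alone with the block. Between 4 and 9 rose when 1 array was left out, with 4 without 0 h number 3 or 12 h number 3 or 5. Nfe2l2, which encodes NRF2, was 12.24, 11.98, 11.99 and 12.00 at 12 h, against 11.83, 11.80, 11.27, 11.53 and 10.92 at 0 h (0.61, SE 0.10, adjusted p = 0.00244). Gclm, the modifier subunit of glutamate-cysteine ligase, was 11.54 to 11.92 at 12 h and 10.74 to 11.44 at 0 h (0.68, adjusted p = 0.00242). Neither gene overlapped between groups. Glutathione reductase (Gsr) and thioredoxin reductase (Txnrd1) both rose by 0.52 (adjusted p = 0.00669 and 0.0122), the glutathione conjugate exporter gene Abcc1 by 0.45 (0.00682) and the transferase gene Gstt2 by 0.30 (0.0487).

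In some of these genes 12 h number 2 stood closer to the 0 h arrays than the other 12 h cultures did. Nqo1, a quinone reductase and classic NRF2 target, was 6.997 on number 2 at 12 h and 9.28, 8.16 and 8.06 on numbers 3 to 5, against 6.47, 7.12, 6.52, 7.40 and 6.52 at 0 h. Its rise was 1.38 (SE 0.37, adjusted p = 0.0459). Hmox1, haem oxygenase 1, was 8.93 on number 2 and 11.37, 10.87 and 10.79 on the others, against 8.47 to 10.26 at 0 h, and missed the threshold (1.39, SE 0.41, adjusted p = 0.0638). Gsr was 9.95 on number 2 and 10.92 to 11.08 on the rest, against 9.92 to 10.38 at 0 h. Over the 584 rises the median difference was 0.23 for number 2, 0.27 for number 4 and 0.57 for numbers 3 and 5. The calls of Txnrd1, Gstt2 and Nqo1 were lost in 3, 5 and 6 of the 9 fits without 1 array, with adjusted p of up to 0.0784, 0.185 and 0.229 without 12 h number 3.

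The antioxidant response element TGACNNNGC, searched on both strands, was found in 3 of the 4 called members with a promoter sequence (Gclm, Txnrd1 and Nfe2l2), in 6 of 23 members not called and in 14.0% of all genes. It is shown in capitals for the synthesis and reductase genes; both matches lie on the opposite strand, so the capitals read as its reverse complement.
Gclm (chr3:122245307-122245606, plus strand): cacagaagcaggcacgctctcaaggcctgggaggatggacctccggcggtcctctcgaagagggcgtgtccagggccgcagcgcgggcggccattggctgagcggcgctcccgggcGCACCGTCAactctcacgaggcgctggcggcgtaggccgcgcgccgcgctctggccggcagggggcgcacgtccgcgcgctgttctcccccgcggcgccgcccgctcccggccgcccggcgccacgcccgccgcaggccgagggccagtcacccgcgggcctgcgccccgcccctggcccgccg
Txnrd1 (chr10:82858956-82859255, plus strand): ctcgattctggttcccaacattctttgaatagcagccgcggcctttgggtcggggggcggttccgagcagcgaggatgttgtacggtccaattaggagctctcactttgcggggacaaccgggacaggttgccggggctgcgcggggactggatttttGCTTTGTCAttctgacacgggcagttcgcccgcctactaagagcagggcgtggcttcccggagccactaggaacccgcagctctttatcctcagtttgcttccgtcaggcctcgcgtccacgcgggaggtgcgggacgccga
The matches begin 134 and 92 bases before the annotated starts of Gclm and Txnrd1, and the promoter of Txnrd1 is 1 of 3 annotated for that gene.

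Efflux transporters and aldehyde dehydrogenases are routes by which cells dispose of this drug class. Of 15 ATP-binding cassette transporters listed for drug efflux 4 rose (26.7%, against 2.93% of all genes): Abcc1, Abcc5 (0.56, adjusted p = 0.00256), Abcb10 (0.38, 0.00635) and Abcc4 (0.38, 0.0225). The list was not limited to members shown to export this drug. The multidrug transporter Abcb1a stood at -0.0046. Of 19 aldehyde dehydrogenases 2 rose, Aldh3b1 by 0.37 (adjusted p = 0.00553) and Aldh4a1 by 0.36 (0.0322), while Aldh1a1 and Aldh3a1, the forms known for detoxifying cyclophosphamide, stood at 0.16 and -0.12 and were not called. None of either list rose without the block, or on the 9 arrays alone with the block. The Abcc4 and Aldh4a1 calls were lost without 0 h number 3 or 5 or 12 h number 3 or 5, and that of Aldh4a1 also without 12 h number 2 (adjusted p up to 0.114 and 0.169).

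Other rises past 2-fold came from varied functions. Ier5, a stress-induced regulator of heat shock factor 1, was 9.89, 9.67, 9.95 and 9.73 at 12 h, against 8.86, 8.92, 8.56, 8.79 and 8.16 at 0 h (1.21, SE 0.08, adjusted p = 1.92e-08). Fetub, which encodes the protease inhibitor fetuin-B, was 8.77 to 9.46 at 12 h and 7.06 to 8.11 at 0 h and rose by 1.49. The vault RNA Vaultrc5 rose by 1.23, the lipase gene Abhd6 by 1.09 and Rhbdf2, which controls release of TNF from the cell surface, by 1.09. Tnf itself rose by 0.71 (adjusted p = 0.00553), as 1 of 3 rises among 19 NF-kB genes (15.8%, against 2.93% of all genes) beside Nfkbiz (0.36) and Icam1. Without the block 1 member of that list rose, and none rose on the 9 arrays alone with the block. The Icam1 call was lost in 6 of the 9 fits without 1 array. Ptgir, the prostacyclin receptor gene, was 7.93 on number 2 at 12 h and 10.10, 9.85 and 9.67 on the others, against 7.66 to 8.35 at 0 h (1.41, SE 0.24, adjusted p = 0.00271), so the rise was carried by 3 of the 4 cultures.

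Of the 124 falls, which were 0.622% of all genes, 4 reached 2-fold: Fosb, S1pr1, Chac1 and Nr4a1. Fosb and Nr4a1 belong to the immediate early response, which cells switch on within minutes of a stimulus. In that list of 19, 3 fell, 1 rose (Ier5) and the median was -0.13. Without the block none fell, and the count of falls was 7 without 0 h number 1, 6 without 0 h number 2 and 0 or 1 without any other array. Over all genes, 355 fell without 0 h number 1 and 309 without 0 h number 2, against 124 in the main fit. Fosb, a subunit of the AP-1 transcription factor, was 7.79, 7.77, 7.81 and 7.85 at 12 h, against 7.68, 7.87, 9.20, 10.47 and 9.81 at 0 h. Nr4a1, an orphan nuclear receptor, was 9.28, 9.58, 9.66 and 9.61 at 12 h, against 9.16, 9.51, 11.34, 11.14 and 11.17 at 0 h. The related Nr4a2 fell by 0.72 (adjusted p = 0.0358), a call lost in 6 of the 9 fits without 1 array (up to 0.157 without 12 h number 5). In Fosb and Nr4a1, 0 h numbers 1 and 2 were at the 12 h level and numbers 3, 4 and 5 were above it. The fitted changes of Fosb and Nr4a1 were -1.31 (SE 0.34, adjusted p = 0.0412) and -1.04 (SE 0.27, adjusted p = 0.0414), and both calls were lost without any 1 of 0 h numbers 3, 4 and 5 or of the 12 h arrays (adjusted p up to 0.152 and 0.151). Myc, driven here by its transgene, was 13.05 to 13.11 at 12 h and 13.01 to 13.28 at 0 h and was not called (-0.06, adjusted p = 0.469).

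The same split of the 0 h arrays was seen in other falls. Chac1, an enzyme that breaks down glutathione, was 8.02 to 8.33 at 12 h, against 8.15 and 8.33 on 0 h numbers 1 and 2 and 9.70, 9.69 and 9.77 on numbers 3 to 5 (-1.10, adjusted p = 0.0188). Skil and Smad7, feedback inhibitors of TGF-beta signalling, fell by 0.79 and 0.67. Over the 124 falls, 0 h number 1 lay within or below the 12 h range in 47 and number 2 in 38, against 12, 27 and 13 for numbers 3, 4 and 5. Such overlap was not confined to the falls. Over the 584 rises, 0 h number 1 lay within or above the 12 h range in 228, number 2 in 143 and number 4 in 179. Numbers 3 and 5 did so in 75 and 35. The 12 h arrays overlapped the 0 h range as well. Numbers 2 to 5 at 12 h did so in 235, 93, 144 and 195 of the rises and in 42, 37, 36 and 44 of the falls. The array of 0 h number 1 had no 12 h partner in the block. What set these cultures apart was not tested. Chac1 lost its call without 0 h number 3 or 5 or 12 h number 3 or 5, Skil also without 12 h number 4, and Smad7 without 0 h number 5 or 12 h number 3, 4 or 5 (adjusted p up to 0.104, 0.116 and 0.1).

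Some falls held across the arrays. Cytip, which controls lymphocyte adhesion, was 10.90 to 11.05 at 12 h and 11.20 to 12.04 at 0 h (-0.74, SE 0.10, adjusted p = 0.000609). Bmf, a BH3-only activator of cell death, was 8.48 to 8.79 at 12 h and 9.02 to 9.56 at 0 h (-0.66, adjusted p = 0.00128), opposite in direction to Bbc3 and Pmaip1. The cold-inducible RNA-binding protein gene Cirbp was 9.45 to 9.67 at 12 h and 9.93 to 10.46 at 0 h (-0.66, adjusted p = 0.00256), and Insig1, which restrains sterol synthesis, fell by 0.62 (adjusted p = 0.00718). None of these 4 genes overlapped between groups, and each was called in all 9 fits without 1 array. The lysophospholipid receptor gene P2ry10 and the G-protein regulator gene Rgs2 fell by 0.69 and 0.58 and also held in all 9. S1pr1, the receptor that guides lymphocytes out of tissue, was 10.29, 8.58, 8.20 and 8.05 at 12 h and 9.73 to 10.25 at 0 h, so it fell in numbers 3 to 5 and not in number 2 (-1.10, adjusted p = 0.00826, and 0.0567 without 12 h number 5). Of 16 quiescence and FOXO target genes 3 fell, Ccng2 by 0.60, Hbp1 by 0.57 and Txnip by 0.38, where 0.622% of all genes fell. Without the block none fell. Each lost its call without 12 h number 3, 4 or 5, and Ccng2 and Hbp1 also without 0 h number 3 or 5 (adjusted p up to 0.161, 0.115 and 0.0945).

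**Figure D4:**
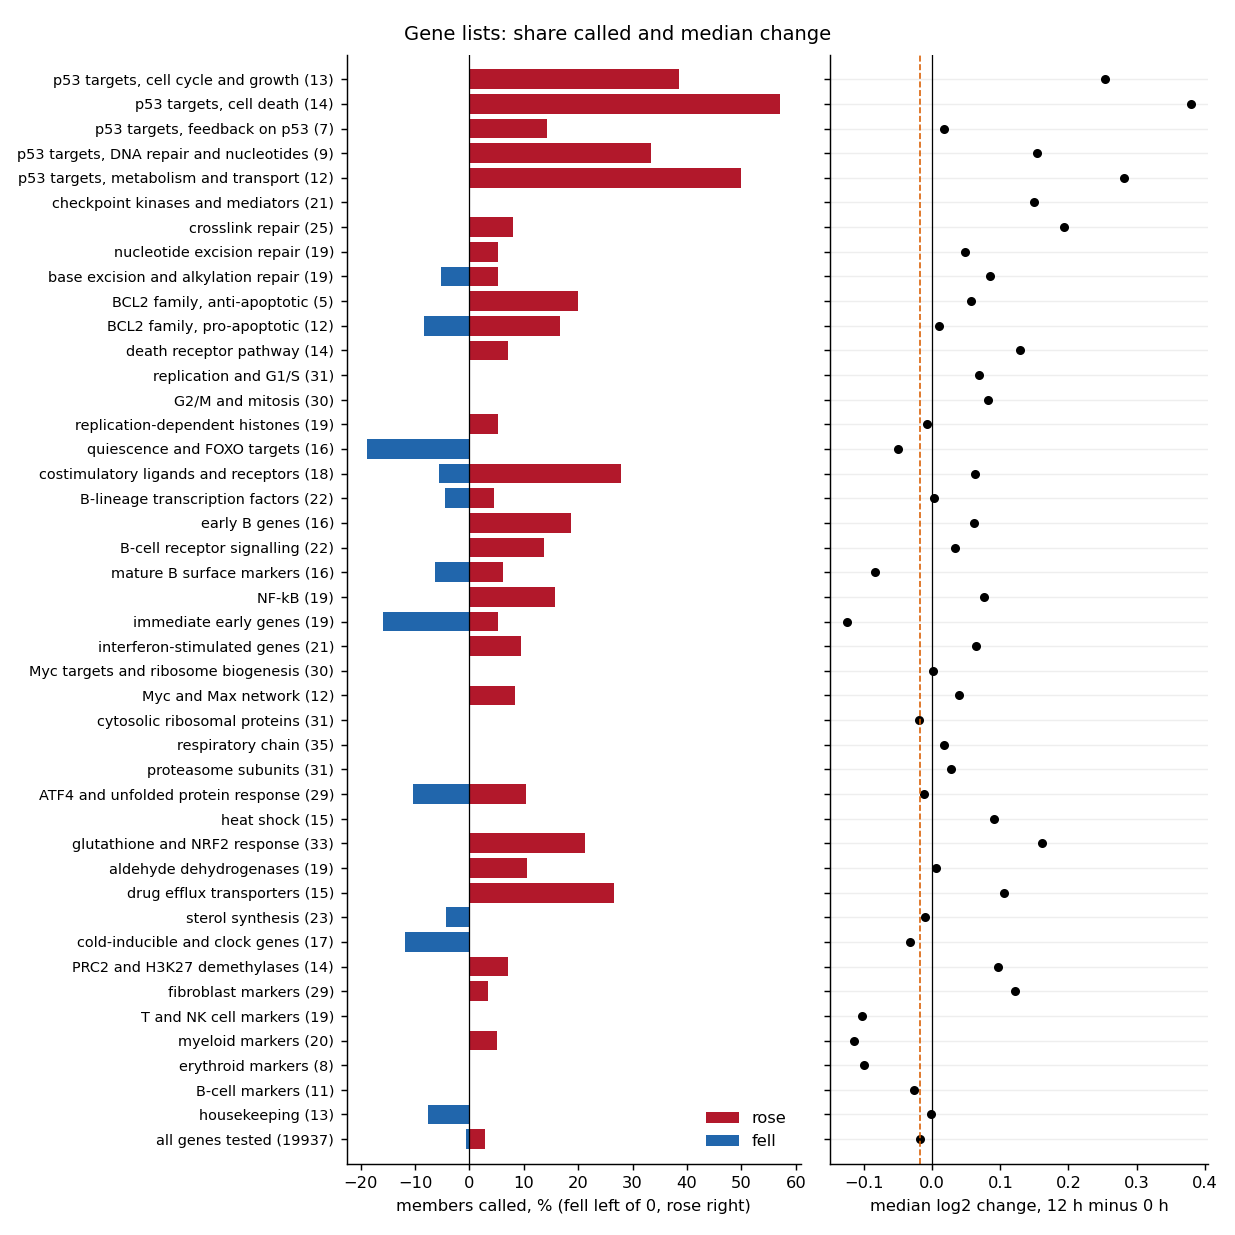
For each gene list, with its number of measured members in brackets, the left panel gives the share of members called (rose to the right of 0, fell to the left) and the right panel the median log2 change, 12 h minus 0 h, with the median of all genes as a dashed line. The p53 target lists reach 57.1% called, while all genes had 2.93% rising and 0.622% falling.

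B-lineage genes were read in 4 lists, of which 9.09% (transcription factors), 18.8% (early B genes), 13.6% (B-cell receptor signalling) and 12.5% (mature B surface markers) were called, against 3.55% of all genes. Without the block 1 member was called, in the receptor signalling list. Of 22 B-lineage transcription factors 1 rose and 1 fell, Xbp1 (0.42, adjusted p = 0.0208) and Ets1 (-0.27, 0.0174). Of 22 receptor signalling genes 3 rose: the kinase gene Fyn by 0.42 (adjusted p = 0.00244), the adaptor gene Dapp1 by 0.56 (0.0306) and the tetraspanin gene Cd81 by 0.26 (0.0234). The Fyn call held in all 9 fits without 1 array, while those of Dapp1 and Cd81 were lost in 5 and 4 (adjusted p up to 0.14 and 0.0732). Of 16 mature B surface markers S1pr1 fell and Cd52 rose (0.32, adjusted p = 0.0491, lost in 6 of the 9 fits, up to 0.198). Among 16 early B genes the pre-B receptor components Igll1 and Vpreb1 rose by 0.93 and 0.60 and the interleukin 7 receptor gene Il7r by 0.37. Igll1 was 9.67 on number 2 at 12 h and 11.75, 10.93 and 11.01 on numbers 3 to 5, against 9.30 to 10.18 at 0 h, and its call (adjusted p = 0.0491) was lost in 7 of 9 fits without 1 array (up to 0.23). None of the 30 Myc target and ribosome biogenesis genes, 31 ribosomal protein genes, 35 respiratory chain genes or 31 proteasome genes was called, with medians between -0.02 and 0.03 (limma; unadjusted p under 0.05 in 2, 3, 2 and 2, none called without the block). Of 14 genes of PRC2 and the H3K27 demethylases, Phf1 alone rose (0.45, adjusted p = 0.0245, and up to 0.136 without 12 h number 3), and the methyltransferase gene Ezh2 stood at 0.03. Calls of Xbp1, Ets1, Vpreb1 and Il7r were lost without 0 h number 3 or 12 h number 3, with adjusted p of up to 0.12, 0.117, 0.0954 and 0.161.

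The 12 h values were placed among the neighbouring times of the same line in the same fit. The difference between 12 h and 6 h was called for 30 genes (0.150%), and that between 24 h and 12 h for 459 (2.30%). The mean of Cd80 was 7.13 before treatment, then 7.91 by 6 h, 9.88 by 12 h, 9.62 by 24 h and 8.40 by 48 h. It stood 1.97 higher at 12 h than at 6 h (adjusted p = 3.01e-05). Psrc1, Zmat3, Dglucy, Ier5, Ccng1, Tnfsf9, Fetub, Vaultrc5, Plk2 and Bst2 were also called between 6 h and 12 h. Dglucy was at its 0 h level at 6 h (6.67) and rose further by 0.70 between 12 h and 24 h (adjusted p = 0.01). Ier5, Slc19a2, Gtse1 and Trp53inp1 were lower at 24 h than at 12 h, with differences of -0.45, -0.50, -0.43 and -0.55, each called. Among the falls, Fosb, Nr4a1, Cirbp and Cytip differed between 12 h and 6 h by 0.04, 0.08, 0.01 and -0.01, none of them called. The contrasts share arrays with that of 12 h and 0 h, so no likeness between them was tested.

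**Figure D5:**
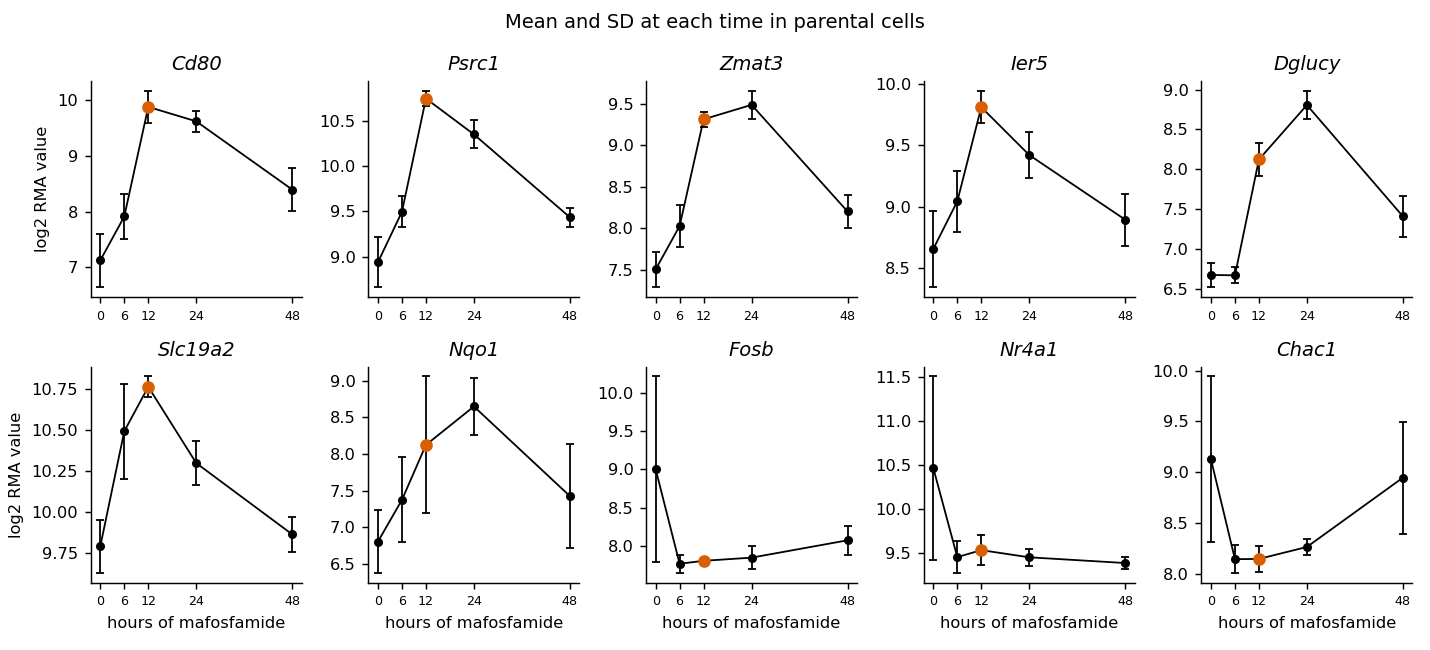
Mean log2 value (points) and SD (bars) of 10 genes at 0, 6, 12, 24 and 48 h of mafosfamide in parental cells, with 12 h in orange (5, 4, 4, 5 and 5 arrays). Psrc1, Ier5 and Slc19a2 are highest at 12 h, Zmat3, Dglucy and Nqo1 at 24 h, and Fosb and Nr4a1 are highest and most spread at 0 h.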

How the data were processed

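Total RNA was measured on Affymetrix Mouse Gene ST 1.0 arrays. The authors deposited log2 values made by robust multi-array averaging (RMA), with the affy package according to the submitters' processing notes, which also name mm9. RMA corrects background and forces all arrays to 1 distribution. Of 34760 probe sets, 21640 carried 1 gene symbol, and the probe set with the highest mean was kept for 954 genes with several, leaving 19937 genes.

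The 23 parental arrays were fitted in limma 3.58.1 (R 4.3.3, lmFit and eBayes) with time and the number in the sample description as a block, and p-values were adjusted by Benjamini-Hochberg over all genes at a threshold of 0.05. The comparison was defined with these numbers as the block, and the labels do not say what a number marks. Deviations from the group means of same-numbered 12 h and 0 h arrays correlated at 0.47, 0.20, 0.45 and 0.33 for numbers 2 to 5. Arrays of unlike number correlated at -0.55 to 0.18. The highest of these was 12 h number 3 with 0 h number 4, so number 3 was hardly closer to its own number. The fit was tested on simulated data. "Rose" and "fell" mean called. The titles call the arrays biological replicates of 1 line without saying how the cultures were kept apart, so the p-values measure only the spread between these cultures. The number of arrays limits the precision.

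Named genes (117) were the 20 largest called rises and 15 largest called falls with all 4 within-number differences of that sign, passing over bare gene models, up to 4 called members a list by smallest p (up to 2 of a list with none called) and some fixed names; 34 more (such as Nqo1, Hmox1, Ptgir, Plk2 and Cd274) and list members given as not called were added after their values were seen. The gene lists and members were chosen with earlier results of these data known. Alternatives changed the block, arrays, scaling, filter and probe set rule. Promoters and gene names came from RefSeq tables (GRCm38.p6).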

Additional observations from a re-analysis of the deposited data

Results flagged for a closer look

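Among 302 groups of 4 or 5 arrays examined for 151 genes, 24 held an array far from the rest by Dixon's criterion, where chance alone gives about 1 in 20. Of these arrays 15 were 12 h number 2. On that array the value was the highest of the 12 h group for Ddias (11.41), Bcl2 (10.84), Hbp1 (9.83), Nr4a2 (9.15), Nfe2l2 (12.24), Mcl1 (11.80) and Pycard (8.57). It was the lowest for Abhd6 (9.29), Cd244a (8.42), Il7r (12.31), Gsr (9.95), Aldh3b1 (9.90), Aen (9.52), Mlkl (7.36) and Raet1d (6.32).

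Among the other 12 h arrays, number 3 was highest for Mettl7a1 (10.07) and Casp1 (9.17), and number 4 for Rap2b (9.21). Among the 0 h arrays, number 5 was lowest for Slx4 (9.42) and Pes1 (11.10) and highest for Epb42 (6.60), number 2 was lowest for Rpl13 (12.24) and Klf10 (8.64), and number 1 was highest for Mzb1 (12.71).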

How the results depend on the processing

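The count of 708 calls rested on the replicate block and on the other parental arrays in the fit. It was 102 with no replicate block, 115 with the title numbers as the block, 447 with a random block, 35 on the 9 arrays alone with the block and 18 on them without it. Median centring gave 407 and the fibroblast mean as a covariate 1557. Leaving out 1 array gave 186 (without 12 h number 5) to 1533 (without 0 h number 1), with 192 and 400 without 12 h numbers 3 and 4, and 1375, 261 and 354 without 0 h numbers 2, 3 and 5. Array weights, housekeeping centring, a mean of at least 6, trended robust variances and means over probe sets stayed within 1.5 times. Of probe sets without 1 symbol 16 of 13120 were called, and 9 with no block. Over 3169 alternatives for 151 named genes, 2368 kept direction and side of the threshold and 757 lost the call. A further 36 gained one and 8 changed direction, none of these 8 in a named gene that was called. Of all 708 called genes, 1 changed direction with means over probe sets. Cd86 (0.09) was -0.0552 under the title block. Mcl1 (0.01) was -0.0444 with no block on all or on the 9 arrays, -0.0961 under the title block and -0.0134 under the random block, and between -0.015 (without 12 h number 2) and 0.0512 (without 0 h number 3) without 1 array. The cause of these shifts was not tested.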

Other observations

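The genes in these paragraphs were chosen after their values were seen. No list of inflammatory cell death genes was tested, and the 7 given here were picked for their rises. Naip5, a sensor of bacterial flagellin, was 8.18 to 8.40 at 12 h and 7.23 to 7.90 at 0 h (0.62, limma adjusted p = 0.00349). Naip6 rose by 0.67, the necroptosis effector gene Mlkl by 0.70, Casp1 by 0.80, the pore-forming gasdermin gene Gsdmd by 0.40, the kinase gene Ripk3 by 0.34 and the adaptor gene Pycard by 0.32. The Naip5 call held in all 9 fits without 1 array, while those of the other 6 were each lost without 0 h number 3, 12 h number 3 or 12 h number 5, with adjusted p of up to 0.169. Raet1d, a ligand of the NK receptor NKG2D, rose by 0.89 and Serpinb9, an inhibitor of granzyme B, by 0.61, and both held in all 9.

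Pvt1, a long non-coding RNA next to Myc, was 9.37, 9.44, 9.79 and 9.63 at 12 h, against 8.28, 8.52, 8.72, 8.76 and 8.32 at 0 h, and rose by 0.97 (limma adjusted p = 8.83e-05). The groups did not overlap on this probe set, while a second probe set of low signal averaged 3.81 at 12 h and 3.85 at 0 h. Cat, the catalase gene, was 12.67 to 12.94 at 12 h and 12.03 to 12.34 at 0 h and rose by 0.58 (adjusted p = 3.66e-05). Mzb1, a chaperone of antibody secretion, rose by 0.35 (adjusted p = 0.000678), and Yars, the tyrosyl-tRNA synthetase gene, fell by 0.33 (adjusted p = 0.00548). All 4 held in the 9 fits without 1 array.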
